A study of Mus musculus with 12 samples.

Results

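The nuclear-encoded subunits of the oxidative phosphorylation complexes were followed across 12 mouse pancreas tumours. Members were chosen by name: a probe set had to carry exactly 1 gene symbol beginning with Ndufa, Ndufb, Ndufc, Ndufs or Ndufv and a digit, Uqcr, Cox4 to Cox8, or Atp5, and pseudogenes were left out. The rule found 78 genes of the 30142 genes measured. They comprised 33 genes of complex I, 8 of complex III, 20 of complex IV and 16 of complex V. The last gene, Dmac2 (Atp5sl on the platform), is not a structural subunit and was placed in no complex.

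Oxidative phosphorylation takes place in the inner mitochondrial membrane. Complex I (NADH dehydrogenase, Nduf genes) passes electrons from NADH to ubiquinone, complex III (Uqcr genes) passes them to cytochrome c, and complex IV (cytochrome c oxidase, Cox genes) passes them to oxygen. The protons pumped on the way drive complex V, the ATP synthase (Atp5 genes). A few core subunits are encoded by mitochondrial DNA, and 0 of those 13 genes were measured here as single genes, so all values below concern the nuclear share. Most of these subunits are made in every cell type with mitochondria, whereas some complex IV subunits have isoforms made mainly in heart, skeletal muscle, lung or testis.

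All tumours came from mice of the PKT genotype, in which pancreatic ductal adenocarcinoma develops from engineered alleles. There were 4 groups of 3 mice, 1 array per mouse: FAP-TK controls without depletion, FAP depleted, aSMA-TK controls without depletion, and aSMA depleted. TK is thymidine kinase, which makes cells that carry it sensitive to ganciclovir, and the names give FAP (fibroblast activation protein, gene Fap) and aSMA (alpha smooth muscle actin, gene Acta2) as the markers of the targeted stromal cells. The labels state ganciclovir at 50 ug/kg for all 12 mice, so whether the controls received it is unclear, and they give no age or sex. The Fap probe set read 6.56, 7.31 and 6.53 in the FAP-TK controls against 5.52, 5.34 and 6.21 after FAP depletion, without overlap, but was not above background on any array. Acta2 read 12.26, 10.85 and 11.12 in the aSMA-TK controls, whereas the tumours labelled aSMA depleted read 10.13, 13.86 and 15.28. These values therefore go against that label, and no direction below is tied to loss of aSMA-positive cells.

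Many respiratory-chain promoters are known to carry sites for NRF1, for GABP (an ETS-family factor) and for YY1. Promoter windows of 250 bases before to 50 bases after the start were matched for 64 of the 78 genes (69 windows, RefSeq, GRCm38.p6). The NRF1 motif, searched on both strands like all the others, was found in 18.8% of the members' windows and in 4.6% of all 32851 windows. The GABP motif CCGGAAG was found in 21.7% against 8.86%, the YY1 motif AAGATGGCG in 13% against 1.4%, and the CCAAT box, CCAAT, in 39.1% against 37.4%. Of 97 matches in the members' windows, 0 overlapped a match of another of these motifs. A match is a description of the letters and not a measured binding site. The windows below are 60-base stretches upstream of the start, with the motif in capitals. They show up to 2 members of each complex, those of largest SD over the 12 arrays with an NRF1 motif, or else a GABP motif, ending at or before position -21 from the start. Ndufa5, the gene with the only called difference in the set, is among them. All 7 genes lie on the minus strand, and the sequences are written 5′ to 3′ along the gene.
Ndufa8 (complex I, chr2:36049339-36049398, NRF1 motif at -30 to -21): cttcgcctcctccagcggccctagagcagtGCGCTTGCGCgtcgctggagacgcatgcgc
Ndufa5 (complex I, chr6:24527682-24527741, NRF1 motif on the opposite strand at -190 to -181): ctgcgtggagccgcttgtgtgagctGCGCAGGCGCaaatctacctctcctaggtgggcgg
Uqcr11 (complex III, chr10:80406854-80406913, GABP motif at -66 to -60): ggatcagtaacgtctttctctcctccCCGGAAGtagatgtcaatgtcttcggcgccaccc
Cox6a1 (complex IV, chr5:115349086-115349145, NRF1 motif at -162 to -153): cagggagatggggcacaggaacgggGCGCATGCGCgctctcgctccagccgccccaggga
Cox6b1 (complex IV, chr7:30626115-30626174, GABP motif on the opposite strand at -28 to -22): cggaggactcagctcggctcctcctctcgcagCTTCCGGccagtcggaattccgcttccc
Atp5g2 (complex V, chr15:102671055-102671114, NRF1 motif at -42 to -33): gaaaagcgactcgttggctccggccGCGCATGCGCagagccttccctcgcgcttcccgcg
Atp5k (complex V, chr5:108434415-108434474, NRF1 motif at -50 to -41): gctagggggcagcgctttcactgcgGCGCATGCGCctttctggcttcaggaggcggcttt

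Values are log2 units after quantile normalization, and differences are differences of log2 values, not converted to folds. A level depends on the probe set, so genes were not ranked against each other. Signal limits what can be read: 6 of the 78 members lay above the 95th percentile of the array's negative-control probe sets on all 12 arrays, 33 on some and 39 (50.0%) on none, against 81.6% of all genes on none. The 6 were Ndufb9, Uqcrb, Cox6a1, Cox6b1, Atp5a1 and Atp5g2. The separation of positive from negative control probe sets was 2.97 and 2.99 on FAP-TK control arrays 1 and 3 and 2.69 on FAP depleted array 2, and lay between 4.32 and 4.89 on the other 9. Epithelial markers matched the tissue, with 7 of 10 above background on all arrays, and all 11 measured striated muscle markers were above background on none.

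The widest differences among the members lay within 1 group, the FAP-TK controls. FAP-TK control 2 had the highest value of all 12 arrays for 43 of 78 members (55.1%, against 12.1% of all genes), and FAP-TK control 1 had the lowest for 47 (60.3%, against 16.1%). The 3 controls stood in the order 2, 3, 1 from high to low for 62 members (79.5%, against 28.5%). Control 2 exceeded control 1 for 73 members (93.6%, against 61.3%), with a median gap of 1.37 (0.09 over all genes). The gap did not turn with the scaling: it was 1.31 on the values as deposited (74 members) and 1.23 after median centring (70 members). The counts of extremes did depend on it. Control 1 was the lowest of the 12 arrays for 27 members as deposited and 36 after median centring (1935 and 2697 of all 30142 genes). Control 2 was the highest for 56 and 46 (5321 and 3343 of all genes). These are descriptions of 3 arrays of 1 group and carry no test.

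**Figure D1:**
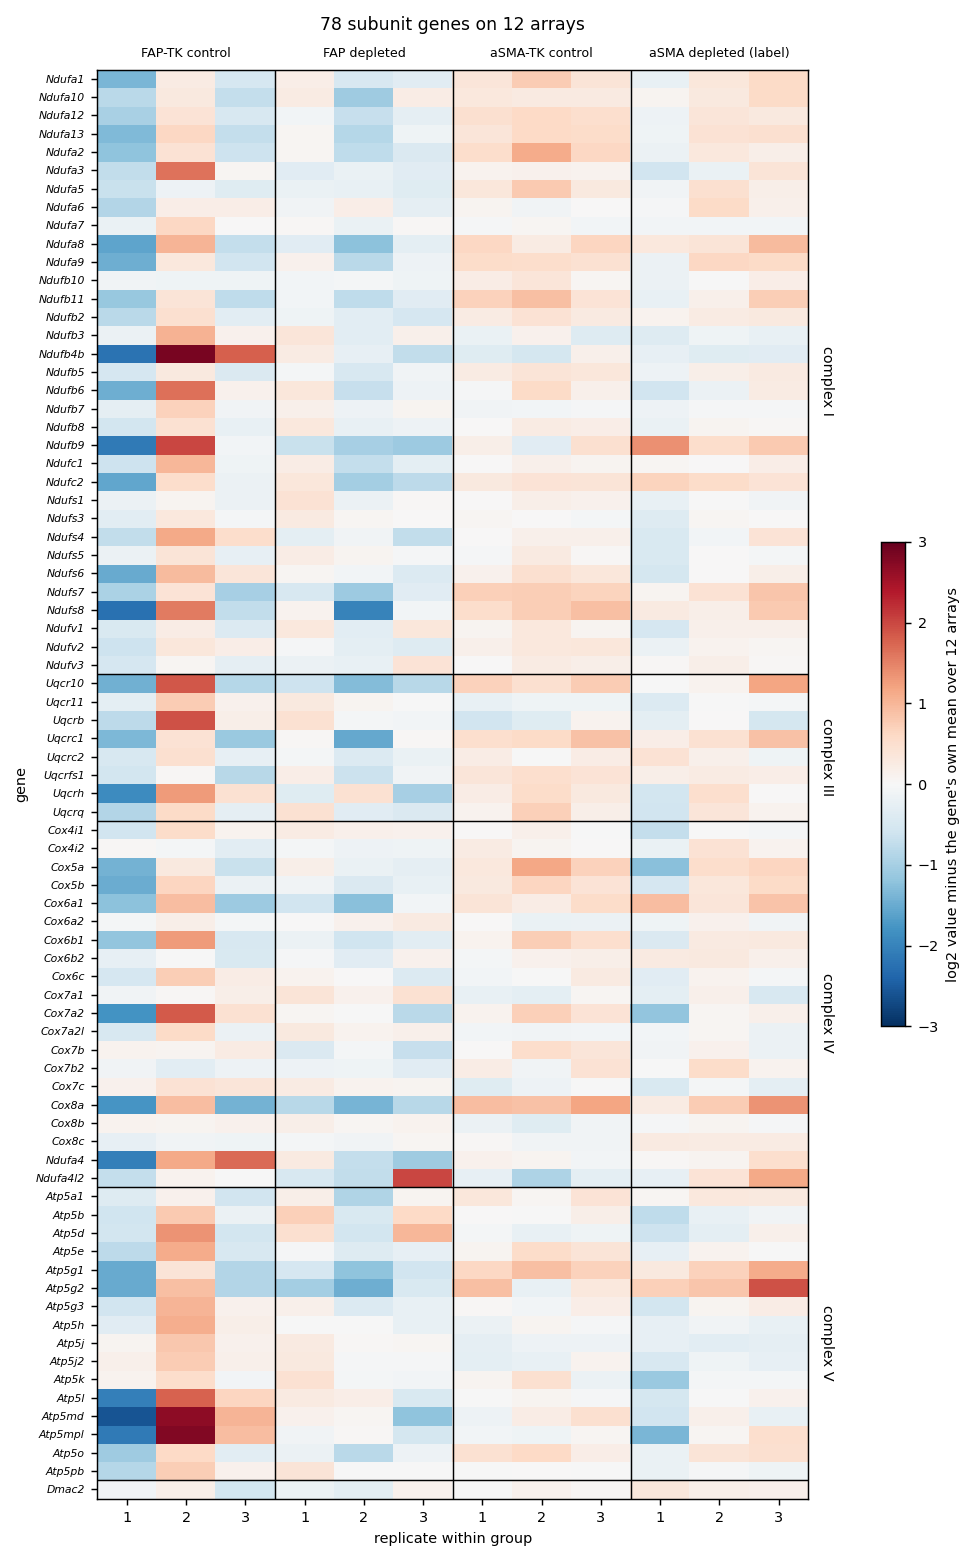
Each row is 1 of the 78 genes and each column 1 of the 12 arrays, and colour is the log2 value minus the gene's own mean over the 12 arrays (blue lower, red higher, scale -3 to 3). FAP-TK control 1 is mostly blue and FAP-TK control 2 mostly red in all 4 complexes, while the 3 aSMA-TK controls look alike.

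The gap ran through every complex, with medians of 1.36 in complex I, 1.62 in complex III, 0.94 in complex IV and 1.64 in complex V. Atp5md, a small membrane subunit of ATP synthase, read 9.91, 15.19 and 13.53 in FAP-TK controls 1, 2 and 3, and 12.34, 12.72 and 12.99 in the aSMA-TK controls. Atp5mpl, another small ATP synthase subunit, read 10.30, 15.20 and 13.35 in the FAP-TK controls. In both genes control 1 was the lowest and control 2 the highest of the 12 arrays. Ndufb4b, an accessory complex I subunit gene with a near-identical relative in Ndufb4, read 8.24, 13.31 and 12.24, and its probes may share signal with that relative. Ndufs8, an iron-sulphur subunit of the complex I core, read 7.40, 11.19 and 8.90. Cox8a, the ubiquitous isoform of its subunit in complex IV, read 9.85, 12.54 and 10.21. These were the 5 genes of largest SD over the 12 arrays (1.14 for Ndufs8 to 1.27 for Ndufb4b). At the other end, Ndufs1, the largest complex I core subunit, spanned only 7.82 to 8.47 over all 12 arrays (SD 0.19), and Ndufb10 spanned 6.33 to 6.85 (SD 0.17). The other 3 genes of smallest SD were the muscle or testis isoforms Cox8b (0.15), Cox6a2 (0.15) and Cox8c (0.17). None of these 5 genes of smallest SD, Ndufs1 and Ndufb10 included, was above background on any array.

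Among the FAP-TK controls the SD exceeded that among the aSMA-TK controls for 69 of 78 members (88.5%, against 61.1% of all genes). The median SD of a member was 0.71 for the FAP-TK controls, 0.31 after FAP depletion, 0.14 for the aSMA-TK controls and 0.29 for the labelled aSMA depletion, against 0.21, 0.19, 0.16 and 0.19 over all genes. Only 5 members were lower in control 2 than in control 1, by 0.01 to 0.21: Cox7b2, Cox4i2, Ndufb10, Cox7b and Cox8b. Members with a GABP motif had a median gap of 2.17 (15 genes) against 1.37 in the 49 without, and those with an NRF1 motif 1.63 (12 genes) against 1.37 in 52. For YY1 the medians were 1.48 and 1.47, and for CCAAT 1.59 and 1.36. The motif holders overlap and share the same arrays, so these medians are descriptions only.

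Some marker lists stood in the same order and others did not. In FAP-TK controls 1, 2 and 3 the mean of 7 macrophage markers was 7.19, 10.69 and 10.25, that of 8 smooth muscle markers 6.19, 8.97 and 7.42 and that of 8 fibroblast markers 9.02, 10.35 and 10.31, all in the order 2, 3, 1. Control 2 was highest but control 3 lowest for 10 epithelial markers (13.90, 14.52 and 13.45), 6 endothelial markers (6.37, 7.73 and 5.36) and 6 islet markers (5.07, 6.48 and 4.80). The 11 acinar markers read 7.09, 6.95 and 9.19. Control 3 had the low control-probe separation of control 1, and its member mean, 8.14, lay between 7.44 in control 1 and 9.02 in control 2. FAP depleted 2, also of low separation, had a member mean of 7.89, against 8.32 and 8.11 in FAP depleted 1 and 3. The part of cell composition and of array quality in the order of the controls was not tested. In whole tumours, fewer cells of a type and less RNA per cell cannot be told apart.

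Taking the mean of each complex per tumour, complex I read 7.04, 8.64 and 7.77 in the FAP-TK controls, 8.00, 7.47 and 7.74 after FAP depletion, 8.17, 8.30 and 8.23 for the aSMA-TK controls, and 7.86, 8.14 and 8.24 where aSMA depletion was labelled. Complex V read 8.40, 10.40 and 9.27, then 9.40, 8.93 and 9.15, then 9.40, 9.43 and 9.46, and then 8.93, 9.40 and 9.53 in the same order. In both complexes the FAP depleted tumours lay inside the range of their controls. The aSMA-TK controls differed by no more than 0.14 in complex I and 0.07 in complex V, whereas the FAP-TK controls spanned 1.60 and 2.00. Complexes III and IV had the same shape, with spans of 1.87 and 1.15 in the FAP-TK controls and 0.17 and 0.13 in the aSMA-TK controls. The mean over all 30142 genes stayed between 5.74 and 5.96 on every array.

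**Figure D2:**
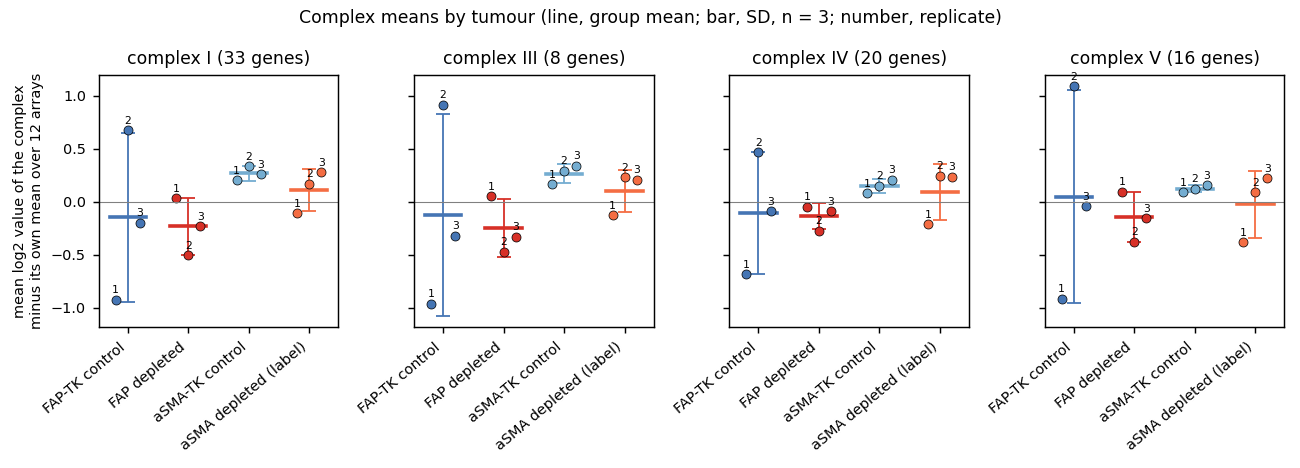
Each panel is 1 complex, each point 1 tumour with its replicate number, and the y axis is the mean log2 value of the complex minus its own mean over 12 arrays; thick lines are group means and bars SD (n = 3). The FAP-TK controls spread over 1.15 to 2.00 units in the 4 complexes, and both depleted groups overlap their own controls in each.

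In FAP depleted tumours against their controls, the set showed no called change and no common direction. By limma with Benjamini-Hochberg adjustment, 0 of 78 members were called, and 0 of all 30142 genes (0% called), with a smallest adjusted p of 0.785. At an unadjusted p under 0.05 stood 1117 genes (3.71%), among them 1 member. The members split into 33 higher and 45 lower with a median difference of -0.08, against 59.9% of all genes higher and a median of 0.04. In the same comparison all 10 epithelial markers were higher (median 0.89, mean 13.45 to 14.52 in the controls and 13.76 to 15.51 after depletion), 10 of 11 acinar markers were higher (1.92, 6.95 to 9.19 and 8.33 to 10.25) and all 8 fibroblast markers were lower (-0.76, 9.02 to 10.35 and 7.60 to 9.95). None of these markers was called, and their part in the members' values was not tested. By complex the members' medians were 0.00 (15 of 33 higher) in complex I, -0.11 (3 of 8) in complex III, 0.00 (10 of 20) in complex IV and -0.15 (4 of 16) in complex V.

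The single member with an unadjusted p under 0.05 was Cox7b, a small structural subunit of complex IV. It read 10.51, 10.49 and 10.66 in the FAP-TK controls against 9.97, 10.34 and 9.70 after depletion, and the groups did not overlap. Its difference was -0.55 ± 0.18 (SE, limma unadjusted p = 0.0129, adjusted p = 1.00). Cox8c, a testis isoform not above background on any array, was the only other member without overlap, at 4.24, 4.38 and 4.37 against 4.43, 4.39 and 4.55. Among all genes 5.6% were higher and 2.5% lower without overlap, so 1 member each way is no more than the background. Cox7b was also 1 of the 5 members lower in FAP-TK control 2 than in control 1.

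For the catalytic and redox core, no difference after FAP depletion was larger than 2 SE. In complex I these were 0.34 ± 0.26 for Ndufv1, which binds NADH, -0.21 ± 0.23 for Ndufv2, 0.18 ± 0.15 for Ndufs1, 0.13 ± 0.18 for Ndufs3, -0.12 ± 0.37 for Ndufs7 and -0.19 ± 0.84 for Ndufs8. In complex III the Rieske iron-sulphur protein Uqcrfs1 gave 0.26 ± 0.24, and the core proteins Uqcrc1 and Uqcrc2 gave 0.20 ± 0.52 and -0.14 ± 0.24. In complex IV the subunits next to the mitochondrial-encoded core gave 0.16 ± 0.27 (Cox4i1), 0.51 ± 0.54 (Cox5a) and 0.09 ± 0.46 (Cox5b). In complex V the catalytic beta subunit Atp5b gave 0.28 ± 0.39, the alpha subunit Atp5a1 0.06 ± 0.28 and the delta subunit Atp5d 0.22 ± 0.52. Of the 15 measured core genes 11 had a positive and 4 a negative difference, and none passed the test.

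By complex, the lowest differences were Ndufb4b (-1.04 ± 1.02), Ndufb9 (-0.85 ± 0.80) and Ndufs4 (-0.67 ± 0.41) in complex I, and Uqcr10 (-0.77 ± 0.71), Uqcrb (-0.33 ± 0.55) and Uqcrh (-0.24 ± 0.70) in complex III. In complex IV they were Ndufa4 (-0.77 ± 0.80), Cox7b (-0.55 ± 0.18) and Cox7a2 (-0.41 ± 0.77), and in complex V Atp5mpl (-0.73 ± 0.99), Atp5md (-0.72 ± 1.06) and Atp5g2 (-0.48 ± 0.60). The highest beside the core genes were Ndufa1 (0.33 ± 0.38), Ndufa9 (0.30 ± 0.41), Uqcrq (0.09 ± 0.40), Ndufa4l2 (0.46 ± 0.66), Cox7a1 (0.30 ± 0.17) and Atp5pb (0.12 ± 0.32). With 1 array left out the members' median lay between -0.32 (without FAP-TK control 1) and 0.30 (without FAP-TK control 2), and it was 0.06 without FAP depleted 2, so single arrays set its sign. With array weights it was 0.14. Without FAP depleted 2, 4 genes and 0 members were called. Without the 3 arrays of low control-probe separation, which leaves 1 FAP-TK control whose spread is taken from the other groups, 13 genes and 0 members were called and the median was -0.61.

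**Figure D3:**
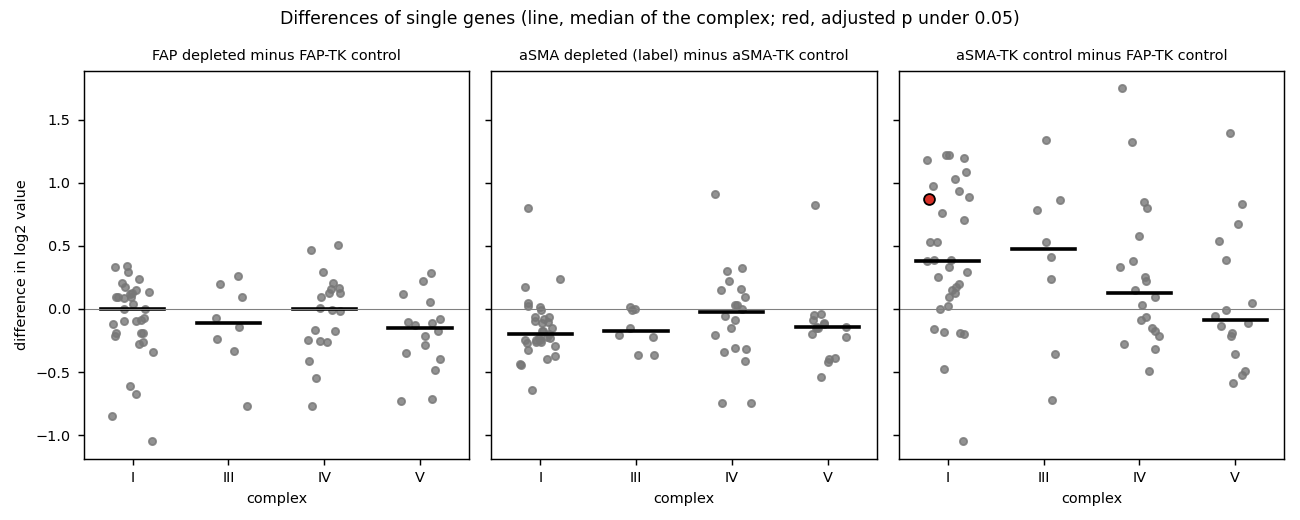
Each point is 1 gene and the y axis is the difference in log2 value for the comparison named above the panel; columns are the complexes, black lines their medians, and red marks an adjusted p under 0.05. Medians lie between -0.15 and 0.00 in the FAP comparison and between -0.20 and -0.03 in the aSMA comparison. Between the control groups they lie above 0 for complexes I, III and IV, and Ndufa5 is the only red point.

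In the tumours labelled aSMA depleted the members were mostly lower than in the aSMA-TK controls, by small amounts that did not pass the test and depended on the scaling. Of 78 members, 59 were lower and 19 higher with a median of -0.15, whereas 53.2% of all genes were higher with a median of 0.01. On the values as deposited the members' median was -0.06 and after median centring 0.01, against -0.03 and 0.05 over all genes. Complex I had 27 of 33 lower (median -0.20), complex III 6 of 8 (-0.18), complex V 15 of 16 (-0.15) and complex IV 11 of 20 (-0.03). By limma 0 members and 0 genes (0% called) reached an adjusted p under 0.05, the smallest being 0.474, and 1450 genes (4.81%) had an unadjusted p under 0.05. The 2 members among these were Cox8c (0.30 ± 0.08) and Cox8b (0.22 ± 0.09), both higher, both restricted isoforms and neither above background. Without overlap were 4 members higher and 8 lower. Among all genes 7.43% were higher and 5.08% lower without overlap. In the same comparison all 7 macrophage markers were higher (median 1.51, mean 8.45 to 9.61 in the controls and 10.15 to 10.46 in the labelled group), as were all 8 smooth muscle markers (0.79, 7.38 to 7.97 and 7.42 to 9.18) and all 8 fibroblast markers (0.47, 8.97 to 9.84 and 9.61 to 11.12). None of these markers was called, and their part in the members' values was not tested.

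One tumour carried much of this. The array of aSMA depleted 1 was the lowest of its group for 61 of 78 members (78.2%, against 38.4% of all genes), and without it the members' median was -0.02. Without aSMA depleted 3, 16 genes and 0 members were called. Cox5a, a matrix-side subunit of complex IV, read 10.20, 11.04 and 10.58 in the aSMA-TK controls against 8.64, 10.42 and 10.53 in the labelled tumours. Cox7a2, the ubiquitous isoform of its subunit, read 10.08, 10.69 and 10.38 against 8.78, 10.03 and 10.11. Atp5k, the small subunit e of ATP synthase, read 5.62, 6.00 and 5.35 against 4.41, 5.46 and 5.48. In each the first tumour stood apart, and the other 2 lay in or near the range of the controls. The same array had the lowest acinar marker mean of all 12 (5.81), the highest islet mean (9.22) and the highest T cell mean (5.00), and the part of these in its low values was not tested.

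The core genes had negative differences in 14 of 15 cases, from -0.74 ± 0.54 (Cox5a) and -0.42 ± 0.39 (Atp5b) to -0.04 ± 0.28 (Atp5a1), with Uqcrc2 at 0.00 ± 0.24. Atp5b read 9.80, 9.79 and 9.98 in the controls and 9.03, 9.58 and 9.70 in the labelled group, without overlap. Cox4i1 read 7.14, 7.27 and 7.12 against 6.42, 7.10 and 7.07, Ndufs1 8.06, 8.21 and 8.18 against 7.82, 8.02 and 7.93, and Uqcrfs1 7.61, 7.75 and 7.65 against 7.42, 7.50 and 7.46. All 3 were lower without overlap, with limma unadjusted p of 0.270, 0.165 and 0.407, and none of the 3 was above background on any array. The shared estimate of spread, which includes the wide FAP-TK controls, enters these tests.

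The lowest accessory genes were Ndufa2 (-0.64 ± 0.38), Ndufb11 (-0.45 ± 0.38) and Ndufs6 (-0.43 ± 0.51) in complex I, Uqcrh (-0.37 ± 0.70), Uqcrq (-0.36 ± 0.40) and Uqcr10 (-0.22 ± 0.71) in complex III, and Cox7a2 (-0.75 ± 0.77) and Cox6b1 (-0.41 ± 0.52) in complex IV. In complex V they were Atp5k (-0.54 ± 0.31) and Atp5md (-0.39 ± 1.06), beside the core gene Atp5b. Higher values were found for Ndufb9 (0.80 ± 0.80), Ndufa6 (0.24 ± 0.28), Ndufc2 (0.18 ± 0.48), Ndufa4l2 (0.91 ± 0.66), Cox6a1 (0.33 ± 0.52) and Atp5g2 (0.82 ± 0.60). By the brightest probe set of each gene, Atp5g2 was the only complex V gene with a positive difference. For Atp5l a dimmer probe set on the gene's own chromosome gave 0.02 ± 0.20. Atp5g2 encodes 1 of 3 precursors of the same mature membrane ring subunit, and the other precursor genes gave -0.04 ± 0.42 (Atp5g1) and -0.14 ± 0.36 (Atp5g3). Ndufb9 read 14.32, 13.80 and 14.63 in the controls against 15.52, 14.69 and 14.94, higher without overlap.

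Whether the effects of the FAP and aSMA depletions differed was tested on the difference itself. By limma 0 members and 0 of all genes (0% called) passed, with a smallest adjusted p of 0.829, while 1796 genes (5.96%) and 0 members had an unadjusted p under 0.05. The FAP effect was above the aSMA effect for 43 members and below it for 35, with a median of 0.04, against 53.6% of all genes above and a median of 0.03. On the high side were Ndufa2 (0.74 ± 0.54), Ndufa1 (0.60 ± 0.53) and Ndufv1 (0.57 ± 0.36), Uqcrfs1 (0.47 ± 0.34) and Uqcrq (0.46 ± 0.56), Cox5a (1.25 ± 0.77) and Cox4i1 (0.47 ± 0.38), and Atp5b (0.70 ± 0.55) and Atp5k (0.46 ± 0.44). On the low side were Ndufb9 (-1.64 ± 1.13), Ndufb4b (-0.97 ± 1.44), Uqcr10 (-0.55 ± 1.01), Ndufa4 (-0.93 ± 1.14), Cox6a1 (-0.50 ± 0.73), Atp5g2 (-1.30 ± 0.84) and Atp5mpl (-0.51 ± 1.41). All 15 core genes but Uqcrc2 (-0.14 ± 0.33) were on the high side, and none exceeded 2 SE. The median turned to -0.22 without FAP-TK control 1 and was 0.46 without FAP-TK control 2. It was -0.07 on the values as deposited and -0.15 after median centring.

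The control groups of the lines were compared to see how far the lines differed without depletion. These arrays also enter the comparisons above, so the results are not independent of them. By limma 2350 of 30142 genes (7.8%) were called, 1440 higher (4.78%) and 910 lower (3.02%) in the aSMA-TK controls, and 1 of the 78 members was among them. It was Ndufa5, an accessory subunit of the hydrophilic arm of complex I. Ndufa5 read 6.36, 6.88 and 6.65 in the FAP-TK controls against 7.37, 7.80 and 7.32 for the aSMA-TK controls, and the groups did not overlap. It was 0.87 ± 0.19 higher in the aSMA-TK controls (SE, limma adjusted p = 0.0284), but it was not above background on any array. In the FAP depleted tumours it read 6.82, 6.80 and 6.65 and in those labelled aSMA depleted 6.92, 7.49 and 7.20. All 6 arrays of the FAP line thus lay below all 6 of the aSMA line. The lines also stood apart in array-wide signal. As deposited, the median of an array was 4.41 to 4.65 in the FAP line and 3.89 to 4.10 in the aSMA line. The median of the negative-control probe sets was 5.46 to 6.49 and 4.46 to 4.88. The part of this in the Ndufa5 values and in the called genes was not tested. On the values as deposited the Ndufa5 difference was -0.091 (limma adjusted p = 0.695). Ndufa5 was not called after median centring (0.36) or with only the groups compared. With control-probe separation as a covariate (0.81, limma adjusted p = 0.0918) it was not called either. The same held without FAP-TK control 1 or 3 or aSMA-TK control 1 or 2 (limma adjusted p 0.0632 to 0.0911). It was called in 13 of the 22 alternative settings that included it. Most of those 13 could not change the difference of 0.87. They left out an array of a depleted group, or changed only the prior or the choice of probe set. The count is therefore no measure of how stable the difference is.

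Of the members, 52 were higher and 26 lower in the aSMA-TK controls with a median of 0.23, against 58.2% of all genes higher and a median of 0.07. Without overlap were 13 higher and 4 lower, against 21.3% and 13.8% of all genes. At an unadjusted p under 0.05 were 15 higher and 4 lower, against 17.5% and 10.7% of all genes (28.2% in all). Of 10 epithelial markers 9 were higher (median 0.98, mean 13.45 to 14.52 in the FAP-TK controls and 14.47 to 15.18 in the aSMA-TK controls), with Krt7 (1.58 ± 0.28, limma adjusted p = 0.0159) and Cldn7 (1.01 ± 0.24, limma adjusted p = 0.0363) called. Of 11 acinar markers 9 were higher (1.69, 6.95 to 9.19 and 9.04 to 11.04). These are values after quantile normalization, and their part in the members' values was not tested. The members' medians were 0.38 in complex I (27 of 33 higher), 0.47 in complex III (6 of 8), 0.12 in complex IV (12 of 20) and -0.08 in complex V (6 of 16). These directions turned with the scaling. As deposited the members' median was -0.51 and that of all genes -0.39, with 27 members called, all lower, and 424 of 12443 called genes higher. After median centring the members' median was -0.06, with 6 members called, all lower, and 3342 of 5769 called genes higher. With separation as a covariate it was -0.13 (452 of 1012 called genes higher), and without the 3 arrays of low separation -0.32 (83 of 357). Without FAP-TK control 2, 19 members were called, all higher, and 2177 of 3130 called genes were higher. Without FAP-TK control 1 the only member called was Ndufb4b, at -2.56, and 436 of 855 called genes were higher.

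Several members came near the threshold. Cox8a read 9.85, 12.54 and 10.21 in the FAP-TK controls against 12.56, 12.49 and 12.80 for the aSMA-TK controls, so only FAP-TK control 2 reached the aSMA line (1.75 ± 0.60). Ndufs7, an iron-sulphur subunit of the complex I core, read 6.79, 8.15 and 6.74 against 8.47, 8.48 and 8.40, without overlap (1.22 ± 0.37, limma adjusted p = 0.0696). Uqcrfs1 read 6.71, 7.30 and 6.42 against 7.61, 7.75 and 7.65, without overlap (0.86 ± 0.24). Atp5g1 read 7.40, 9.30 and 8.03 against 9.52, 9.81 and 9.59 (1.40 ± 0.42). Other high values were Ndufa2 (1.22 ± 0.38), Ndufs8 (1.20 ± 0.84), Uqcrc1 (1.34 ± 0.52), Cox5a (1.32 ± 0.54), Cox6a1 (0.85 ± 0.52), Uqcr10 (0.78 ± 0.71), Atp5g2 (0.83 ± 0.60) and Atp5o (0.67 ± 0.38). In the other direction, Cox7c, a small complex IV subunit, read 9.05, 9.35 and 9.27 against 8.55, 8.76 and 8.89, without overlap (-0.49 ± 0.13). The coupling-factor subunit Atp5j read 7.42, 8.14 and 7.46 against 7.06, 7.19 and 7.19, also without overlap (-0.52 ± 0.17). The others low in their complex were Ndufb4b (-1.05 ± 1.02), Ndufb3 (-0.48 ± 0.30), Ndufa3 (-0.20 ± 0.49), Uqcrb (-0.72 ± 0.55), Uqcr11 (-0.35 ± 0.23), Cox8b (-0.32 ± 0.09), Atp5mpl (-0.58 ± 0.99) and Atp5j2 (-0.49 ± 0.19).

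The isoforms made mainly in heart and skeletal muscle (Cox6a2, Cox7a1, Cox8b), in lung and smooth muscle (Cox4i2), in testis (Cox6b2, Cox7b2, Cox8c) and under low oxygen (Ndufa4l2) were above background on 0 of 12 arrays in all 8 cases. Their mean read 4.35, 4.51 and 4.42 in the FAP-TK controls and between 4.30 and 4.84 on the other arrays. The wide order of the FAP-TK controls was not seen in them, with a median gap of 0.14 between controls 2 and 1. Of their more broadly made counterparts, Cox7a2, Cox6b1, Cox6a1, Cox8a, Ndufa4 and Cox4i1 had gaps of 3.64, 2.45, 2.17, 2.70, 3.20 and 1.13, whereas Cox7b, the counterpart of Cox7b2, had -0.02. Cox7a2 read 8.17, 11.81 and 10.42 in controls 1, 2 and 3, and Cox6b1 read 12.75, 15.20 and 13.45. Cox7a2l, a factor that helps complexes III and IV to associate, read 10.98, 12.03 and 11.28. In both depletions 6 of the 8 isoforms had a positive difference, with medians of 0.13 and 0.13, but at these signals the values lie at the level of control probes without a target.

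Ndufa4l2 varied most among these isoforms (SD 0.84 over the 12 arrays), but like the others it was above background on no array. It is a close relative of Ndufa4, was counted here with complex IV and is a known target of the hypoxia response. It read 6.89 on FAP depleted 3 and 6.02 on aSMA depleted 3, and between 3.97 and 5.29 on the other 10 arrays. Ndufa4 itself read 9.18 on FAP depleted 3, the second lowest value of the 12, and 10.75 on aSMA depleted 3. Neither array is a replicate of the other, and the group differences of Ndufa4l2 were 0.46 ± 0.66 and 0.91 ± 0.66. FAP depleted 3 also had the highest mean of the 13 glycolysis genes (11.34, against 9.70 to 10.66 elsewhere) and the highest epithelial mean (15.51). On aSMA depleted 3 these means were 10.25 and 14.84, inside the range of the other arrays. That array had the highest fibroblast (11.12), smooth muscle (9.18), endothelial (8.14) and acinar (12.48) means of the 12. The part of any of these in the Ndufa4l2 values was not tested.

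Atp5l, subunit g of ATP synthase, shows how the choice of probe set enters. Its brightest probe set lies on chromosome 5, away from the gene on chromosome 9, and read 10.95, 14.77 and 13.65 in the FAP-TK controls against 12.98, 13.10 and 12.97 for the aSMA-TK controls. Of 2 probe sets on chromosome 9, both dimmer, the brighter gave a lower level in the aSMA-TK controls, by -1.43 ± 0.20 (SE, limma adjusted p = 0.00734). After FAP depletion it differed by -0.82 ± 0.20 (limma unadjusted p = 0.00207, adjusted p = 1.00), and in the group labelled aSMA depleted by 0.02 ± 0.20. The dimmer probe set on chromosome 9 read 3.48, 3.51 and 3.34 in the FAP-TK controls against 3.48, 3.67 and 3.65 for the aSMA-TK controls. The 2 brighter probe sets were thus both lower in the aSMA-TK controls, by -0.11 ± 0.76 on chromosome 5 and -1.43 ± 0.20 on chromosome 9. The dimmest, at a mean of 3.53 over the 12 arrays, did not share that direction. The chromosome 5 difference is smaller than its SE, so the size and direction for Atp5l are uncertain. Own-locus probe sets were examined after the values had been seen.

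**Figure D4:**
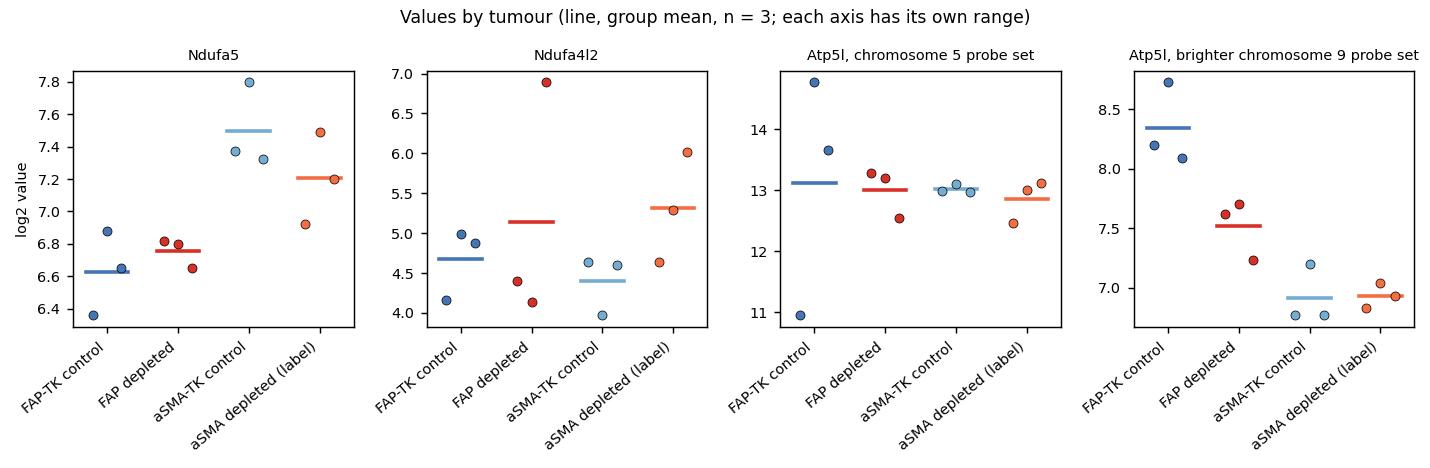
Log2 values of Ndufa5, Ndufa4l2 and the 2 brighter of 3 Atp5l probe sets in each tumour (points), with group means (lines, n = 3); each y axis has its own range. Ndufa5 is lower on all arrays of the FAP line, Ndufa4l2 is high in FAP depleted 3 and aSMA depleted 3, and the Atp5l probe sets order the groups differently.

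Other genes of mitochondrial energy metabolism were measured from lists of the same kind. Of 10 electron carriers and subunits outside the name rule, such as the succinate dehydrogenase genes, 4 were higher and 6 lower after FAP depletion (median -0.08) and 1 was higher and 9 lower in the group labelled aSMA depleted (-0.10). Of 33 assembly factors, which build the complexes, 15 were higher and 18 lower (-0.02), and 14 higher and 19 lower (-0.05). Of 13 regulators of mitochondrial biogenesis, 7 were higher and 6 lower (0.00), and 5 higher and 8 lower (-0.01). None of these genes was called in either depletion. Tfam, which packages and transcribes mitochondrial DNA, had the smallest p of its list in both (0.35 ± 0.12 and -0.26 ± 0.12). Between the control groups 24 of the 33 assembly factors were higher and 9 lower in the aSMA-TK controls (median 0.20). Only 1 of the 33 was called, against 7.8% of all genes. It was Ndufaf6, which went against most of its list, at -0.93 ± 0.14 (SE, limma adjusted p = 0.00926). Of the 33, 29 were above background on no array.

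Glycolysis and the citric acid cycle feed the chain with fuel and electrons. Of 13 glycolysis genes, 11 were higher and 2 lower after FAP depletion (median 0.43) and 8 higher and 5 lower in the group labelled aSMA depleted (0.16), with 0 called. The epithelial and fibroblast marker shifts given above for FAP depletion stand beside this count, and their part in it was not tested. The smallest p values were those of Pgk1, an ATP-forming enzyme (1.32 ± 0.45, limma unadjusted p = 0.0155), and Hk1, a hexokinase (0.77 ± 0.32). Of 15 genes of the citric acid cycle and pyruvate dehydrogenase, 10 were higher and 5 lower after FAP depletion (0.05), led by the succinyl-CoA ligase subunits Suclg2 (0.46 ± 0.20) and Sucla2 (0.34 ± 0.15), and 7 were higher and 8 lower in the other depletion (-0.02). In the FAP-TK controls these lists stood in the order of the members. The citric acid cycle list read 9.21, 10.23 and 9.30, the glycolysis list 9.70, 10.48 and 10.07, the electron carriers 8.09, 9.35 and 8.44 and the assembly factors 6.28, 7.05 and 6.43. The biogenesis regulators read 6.88, 6.76 and 6.40 and did not share it.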

How the data were processed

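RNA from 12 pancreas tumours was hybridised to 1 one-colour array each. The authors deposited log2 values for 72688 probe sets, with that scale read from the values (1.76 to 19.93 over non-control probe sets). How they corrected background and normalized is not given in the sources used here. Of tools, limma is named in the submitters' processing notes. The label protocol names a kit for Illumina arrays, whereas the identifiers follow an Affymetrix design. After 6732 control probe sets were left out, 65956 were quantile normalized between arrays. A gene needed exactly 1 symbol, updated through its identifier in the RefSeq table of GRCm38.p6 (827 changed), and was represented by its brightest probe set, which left 30142 genes. The members had 82 probe sets. Another 4 matching probe sets with several symbols, 2 pseudogene symbols and 1 pseudogene were left out.

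One mean per group was fitted to the 12 arrays together (R 4.3.3, limma 3.58.1, empirical Bayes, two-sided, Benjamini-Hochberg over 30142 genes, called at an adjusted p under 0.05), after testing on simulated data. Alternatives were other scalings, filters, probe sets, priors, array weights, the separation of control probes as a covariate and leaving out arrays. The number of arrays limits the precision. Members and lists were chosen with earlier results of these data known. Named genes are the 2 targets, called members, the 3 largest and 3 smallest differences per complex, core genes, isoform families, the 5 members of largest and smallest SD, and the list members of smallest p.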

Additional observations from a re-analysis of the deposited data

How the results depend on the processing

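No paired analysis was possible because the replicate numbers are only names given in accession order. With 0 members called in either depletion and in the difference of effects under every alternative run, the main shifts in medians and counts were as follows. The members' median turned to 0.01 for aSMA depletion after median centring (-0.06 as deposited), to 0.14 for FAP depletion with array weights, and for the difference of effects to -0.15 after median centring, -0.07 as deposited, -0.06 with the separation covariate and -0.0089 with dim genes left out. Leaving out 1 array gave 0 to 4 called genes for FAP depletion (4 without FAP depleted 2), 0 to 16 for aSMA depletion (16 without aSMA depleted 3, 1 without aSMA-TK control 1), 0 to 1 for the difference of effects (1 without aSMA-TK control 1) and 508 to 3130 for the control lines, with 0 to 19 members called there. In the difference of effects the medians ranged from -0.22 to 0.46 over all members, -0.33 to 0.58 in complex III and -0.29 to 0.55 in complex V, and for the control lines that of complex V from -0.48 to 0.49. Without the 3 arrays of low separation, FAP depletion gave 13 called genes and medians of -0.61 (members), -0.58 (complex I), -0.35 (IV) and -0.85 (V). The difference of effects then gave -0.48 (members), -0.42 (I), -0.61 (III) and -0.72 (V), and the control lines 357 genes, 5 members and -0.32 (members), -0.17 (I), -0.62 (III), -0.31 (IV) and -0.83 (V). With dim genes left out (24 members kept), complex I read -0.52 in FAP depletion and -0.42 in the difference of effects, and the control lines gave 0 genes, 0 members and 0.58 in complex IV. For the control lines, values as deposited gave 12443 genes, 27 members and medians of -0.51 (members), -0.45 (I), -0.35 (III), -0.51 (IV) and -0.83 (V), with Ndufa5 at -0.091. The separation covariate gave 1012 genes, 2 members, -0.035 (I) and -0.66 (V). Called genes and members were 5769 and 6 after median centring, 212 and 0 with only the groups compared, 6658 and 23 with array weights, and 5104 and 11 at an adjusted p under 0.1. A trended prior called 2 members, and own-locus probe sets, an alternative chosen after seeing the data, 2. The cause of these shifts was not tested, apart from fewer genes or arrays entering by construction. The sign of a member's difference held in all settings for 15 of 78 in FAP depletion, 44 in aSMA depletion, 17 in the difference of effects and 19 in the control lines. Settings that changed only the prior, or left out arrays of groups not compared, could not turn a sign. The 3 arrays of low separation are all of the FAP line. These counts therefore do not compare stability between the comparisons. The fit with only the groups compared could not be run for the difference of effects, which needs all 4 groups. Signal over background limits every value, since 39 members lay above it on no array.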
